A study of Mus musculus with 6 samples.

Results

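The complement, coagulation and serpin genes examined here are 33 of the 22609 mouse genes listed with read counts, and they were taken by gene symbol from the count lists of 6 samples. They are components and inhibitors of complement, proteins that start, brake or dissolve a blood clot, and serpins, the protease inhibitors that control both systems. All 33 were listed, and 28 had enough reads to be tested, against 13117 of all genes. The samples were adipocytes grown in culture from the stromal vascular fraction of inguinal subcutaneous fat (iWAT) of male C57BL6 mice, with an age of 3 weeks on the labels that differs from the age in the study's methods. In 3 samples (control) the cells received a control vector per the labels, or a mimic control per the study's methods, and in 3 samples (miR182) they overexpressed miR-182-5p, a microRNA that the study examined in the thermogenesis of subcutaneous fat. The labels name electroporation, whereas the methods describe a synthetic mimic delivered with a lipid reagent. The labels give the same strain, sex, age and growth medium for all 6 samples and name no other treatment. Neither source says whether the 3 samples of a group came from separate animals or cultures, so the p-values measure the spread between these samples, which may be technical.

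Complement is a cascade of secreted proteases that is started by C1 on antibody, by lectins with their MASP proteases, or by the alternative pathway, in which factor D cuts factor B on C3b. All routes meet at C3, and surface inhibitors such as CD55 and CD59 keep host cells from being attacked. Fat is known as a source of complement proteins, and factor D was first described as adipsin, a protease secreted by adipocytes. Coagulation turns on when tissue factor meets factor VII. It is restrained by TFPI and by the protein C pathway, in which thrombomodulin and the endothelial protein C receptor act together. Plasminogen activators dissolve the clot, and serpins block them.

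A microRNA pairs through its seed, bases 2 to 8, with messages that carry the complementary letters, most often in the 3′-UTR. The mature miR-182-5p sequence of RefSeq is shown first, with the seed in capitals, because the miR182 samples are described as overexpressing this microRNA. It lies at chr6:30165962-30165986 on the minus strand (RefSeq, GRCm38.p6). The study's methods print another mature sequence for mouse miR-182-5p, with a different seed. Sites were searched with the RefSeq seed only, and which sequence the cells received was not tested.
miR-182-5p: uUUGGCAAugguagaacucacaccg
The 3′-UTRs of the GENCODE M21 annotation (GRCm38) were searched on the transcribed strand, in the longest 3′-UTR of each gene, for TTGCCAA, the match to the whole seed, and for TGCCAAA, the match to bases 2 to 7 followed by A. The longer TTGCCAAA holds both. Of 12522 tested genes with a 3′-UTR, 12.5% held TTGCCAA, 14.3% held TGCCAAA and 5.2% held TTGCCAAA. Among the 28 tested complement, coagulation and serpin genes, 2 held TTGCCAA, 4 held TGCCAAA and 1 of them, Tfpi, held TTGCCAAA. The 5 sites are shown with the site in capitals, since they are the only such matches in the 3′-UTRs of the 28 genes.
Procr (chr2:155754965-155754971, plus strand): agctcatatgaTGCCAAAcagactcccc
Tfpi (chr2:84442119-84442126, minus strand): tggcacttcctTTGCCAAAatcacagaca
Tfpi2 (chr6:3962948-3962954, minus strand): ttacttattccTTGCCAAgtgtccttga
Serpinf1 (chr11:75409920-75409926, minus strand): tgcttaagctcTGCCAAAgtcaccattt
C3ar1 (chr6:122849305-122849311, minus strand): acagaacacagTGCCAAAtgccacccac
F13a1, which had too few reads to be tested, carried TGCCAAA as well. Mir182, the miRNA's own gene, had 0 reads in each of the 6 samples. These libraries were made from poly(A) RNA, which leaves out mature microRNAs, so they do not measure the overexpression itself.

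Reads counted on genes came to between 25869810 and 26484794 per control sample and between 25960631 and 28796712 per miR182 sample. Levels are given as CPM, the reads of a gene relative to its library's size after edgeR's TMM scaling. A gene passed when edgeR's quasi-likelihood test, adjusted over all 13117 genes, gave it an adjusted p under 0.05, and it was called when it also differed by at least 1.5-fold. Standard errors (SE) belong to log2 fold changes, miR182 minus control. Of the 28 genes tested, C3ar1 and Cd55 had the fewest reads, 2 to 17 and 35 to 77 per sample, and their log2 fold changes had the largest SE.

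Most of the complement, coagulation and serpin genes were lower with miR-182-5p, by modest amounts. Of the 28 tested, 19 passed with a lower level and 2, F2r and Plaur, with a higher level, whereas over all genes tested 23.5% passed with a lower and 23.2% with a higher level. The lower share was thus 67.9% of these genes and the higher share 7.14%. Only 1 gene, Procr, was called lower and none was called higher, beside 5.48% and 1.97% of all genes. Leaving out single samples added 1 gene at most to this count, Cd55 without control replicate 1 (-0.63) or miR182 replicate 3 (-0.73) and Thbd without miR182 replicate 1 (-0.65), for a total of 2 each time. Without replicate 1 of both groups, an alternative chosen after seeing the data, 4 genes were called lower, and a test against a 1.5-fold change itself (edgeR's glmTreat) called 0 genes, and so not Procr. The 3 miR182 samples all lay below the 3 control samples in 19 genes and above them in 2, beside 27.5% and 27.3% of all genes. These are the genes that passed, except that Serpinf1 takes the place of Cfb. The median log2 fold change was -0.28 for the 28 genes and -0.00434 for all genes tested. Since abundant genes pass more easily, the same counts were made for genes with a mean of at least 10 CPM. Of the 21 such genes in the group 16 were lower and 2 higher, where 25.0% and 29.6% of the 9115 genes at this level were. Summed over all 33 genes, the control samples held 8933, 8871 and 8852 CPM and the miR182 samples 8179, 8029.3 and 8029.4 CPM. In bulk RNA, fewer cells of a type and less RNA per cell cannot be told apart, and this holds for every difference given here.

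**Figure D1:**
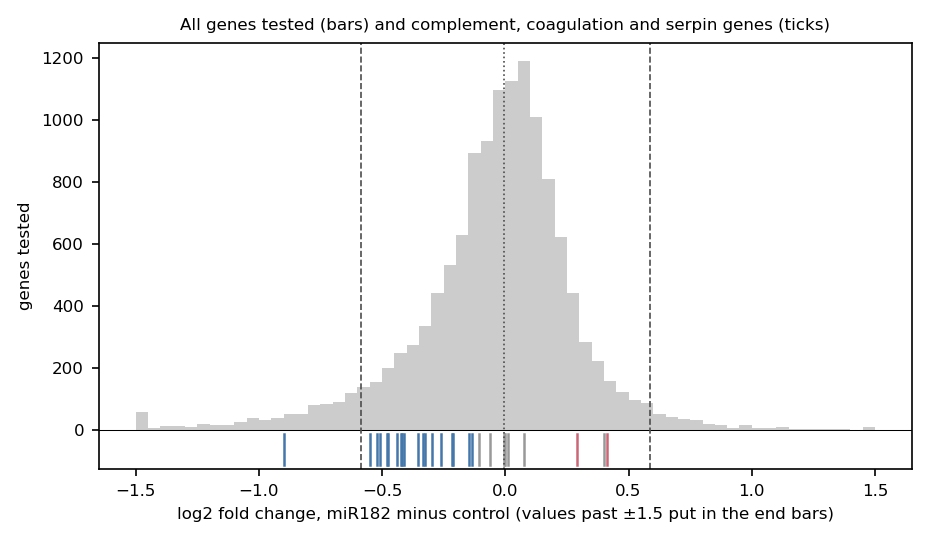
Number of genes tested (vertical axis) by log2 fold change, miR182 minus control (horizontal axis), as grey bars, with each of the 28 complement, coagulation and serpin genes as a tick (blue passed lower, red passed higher, grey did not pass). The dotted line is the median of all genes and the dashed lines mark 1.5-fold; most ticks lie to the left of the dotted line but inside the dashed lines, with Procr alone outside at -0.90.

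**Figure D2:**
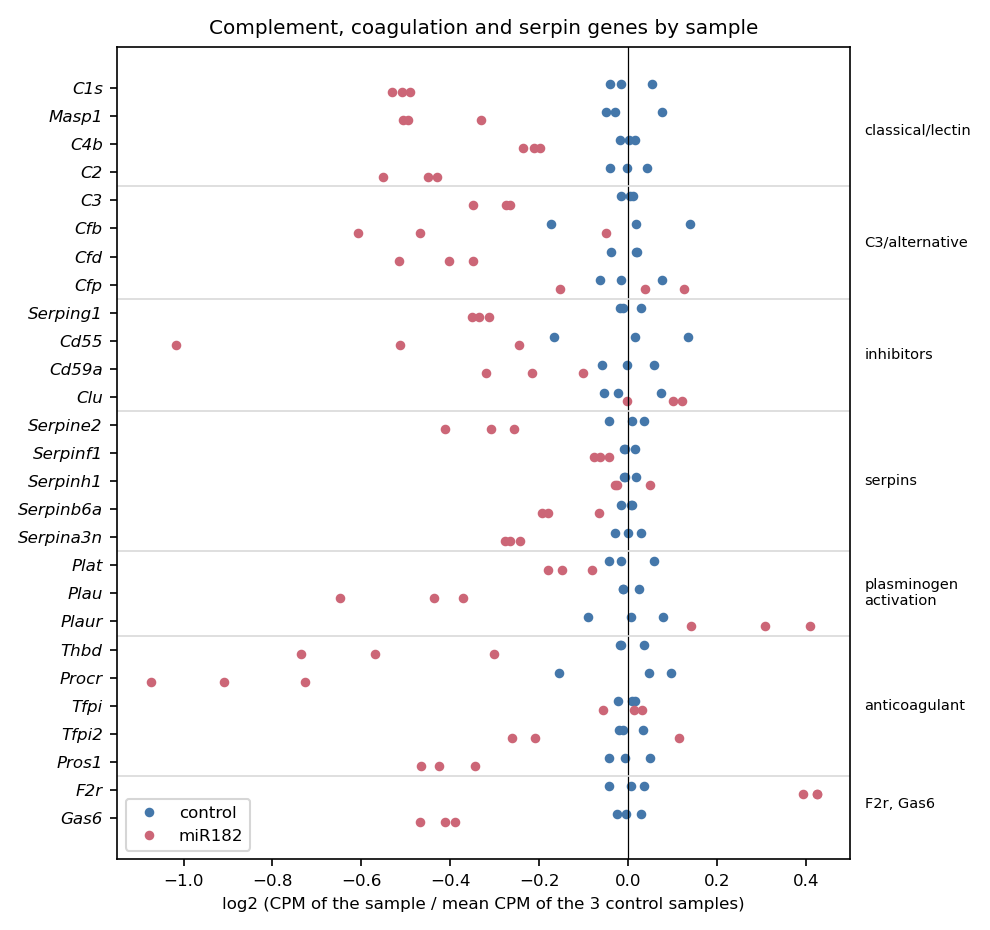
Level of each gene in each of the 6 samples, as log2 of its CPM over the mean CPM of the 3 control samples, grouped by role. Control samples (blue) lie around 0; the miR182 samples (red) lie to the left of all control samples for genes such as C1s, C3, Gas6 and Procr, and to the right for F2r and Plaur, whereas the 2 groups overlap in range for Tfpi, Serpinh1 and Cfb. C3ar1, with 2 to 17 reads, is not drawn.

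All 4 tested genes of the classical and lectin pathways fell. C1s encodes the protease of the C1 complex that cuts C4 and C2, and it was at 242, 253 and 237 CPM in control replicates 1 to 3 and at 169, 174 and 172 CPM in miR182 replicates 1 to 3. The groups lay far apart relative to their spread, and the level was 29.8% lower with miR-182-5p (log2 fold change -0.51, SE 0.031, adjusted p = 1.16e-08). C2, the next protease in the cascade, was at 37.9, 39.1 and 36.9 CPM in the control samples and at 28.2, 27.8 and 25.9 CPM in the miR182 samples. It fell by 0.48 on the log2 scale (SE 0.051, adjusted p = 3.92e-06), without overlap between the groups. C4b encodes C4, the other substrate of C1s, and was at 506, 518 and 513 CPM against 434, 446 and 442 CPM. The decrease of C4b was smaller, 13.9%, yet every miR182 sample lay below every control sample (log2 fold change -0.22, SE 0.027, adjusted p = 1.62e-05). Masp1, a protease of the lectin pathway, had 95 to 140 reads per sample and fell from 5.08 ± 0.242 CPM (SD, n = 3) to 3.74 ± 0.261 (SD, n = 3), a log2 fold change of -0.44 (SE 0.11, adjusted p = 0.00491).

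The recognition part of C1 was close to absent. C1qa, C1qb and C1qc, the 3 chains of C1q, had 3 to 8, 6 to 9 and 3 to 12 reads per sample and were not tested. C1q is made mainly by macrophages, and the macrophage markers were low in the same libraries: of 15 listed, 11 were under 1 CPM in every sample, Cd163 had no read and Emr1, which encodes F4/80, reached at most 0.206 CPM. Summed over that list, the level was 15.2 to 16.2 CPM in the control samples and 12.9 to 16.6 CPM in the miR182 samples, so the groups overlapped. Csf1r, the macrophage marker with the highest CPM (not corrected for length), was at 5.63 to 6.55 CPM in the control samples and 5.92 to 7.40 CPM in the miR182 samples and did not pass (adjusted p = 0.432). Cd68 was at 5.38 to 6.02 CPM against 4.48 to 5.31 CPM, all miR182 samples lying below all controls, and did not pass (adjusted p = 0.0875). Lyz2 was called lower from only 18 to 34 reads per sample (log2 fold change -0.63, SE 0.22, adjusted p = 0.0324).

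C3 and the alternative pathway showed the same direction, with 3 of 4 genes lower. C3, on which all routes converge, was at 715, 712 and 702 CPM in the control samples and at 557, 587 and 590.3 CPM in the miR182 samples. Its level was 18.6% lower, and no sample of one group reached the other (log2 fold change -0.30, SE 0.030, adjusted p = 2.11e-06). Cfd, which encodes factor D or adipsin, was at 465, 464 and 446 CPM against 321, 346 and 359.8 CPM, and was the most abundant complement gene per length in both groups. It fell by 0.42 on the log2 scale (SE 0.038, adjusted p = 7.05e-07), again without overlap. Cfp encodes properdin, which stabilises the alternative convertase, and had 4.80 ± 0.240 CPM (SD, n = 3) in the control samples and 4.83 ± 0.468 (SD, n = 3) in the miR182 samples. The ratio of Cfp was 1.01, well within the spread of both groups (adjusted p = 0.954).

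Cfb, the factor B that factor D cuts, was the exception among the genes that passed, because its groups overlapped. It was at 37.9, 43.2 and 47.0 CPM in the control samples and at 41.2, 30.9 and 28.0 CPM in the miR182 samples. Control replicate 1 was the lowest control sample and miR182 replicate 1 the highest miR182 sample, and the latter lay above the former. Cfb fell by 0.35 on the log2 scale over all 6 samples (SE 0.11, adjusted p = 0.018). Without miR182 replicate 1 its log2 fold change was -0.54 (adjusted p = 2.22e-05), and without replicate 1 of both groups, an alternative chosen after seeing the data, it was -0.62 (adjusted p = 1.49e-08). Leaving out any of control replicates 2 and 3 or miR182 replicates 2 and 3 took Cfb past the threshold, with adjusted p between 0.0588 and 0.0873, and DESeq2 gave it 0.138.

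The same 2 samples stood apart in a list of 17 interferon-response genes. Their summed level was 359, 643 and 683 CPM in the control samples and 1215, 589 and 586 CPM in the miR182 samples, so control replicate 1 was the lowest and miR182 replicate 1 the highest of all. In this list 5 genes passed and were called higher, Isg15, Rsad2, Ifi44, Usp18 and Irgm1, beside 1.97% of all genes tested, and none passed lower. The groups overlapped in Isg15, Rsad2 and Irgm1. In all 5 genes control replicate 1 was the lowest and miR182 replicate 1 the highest sample. For Cfb these 2 were the lowest control and the highest miR182 sample, so leaving both out had to enlarge its decrease. Whether Cfb and the interferon-response genes are linked was not tested.

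**Figure D3:**
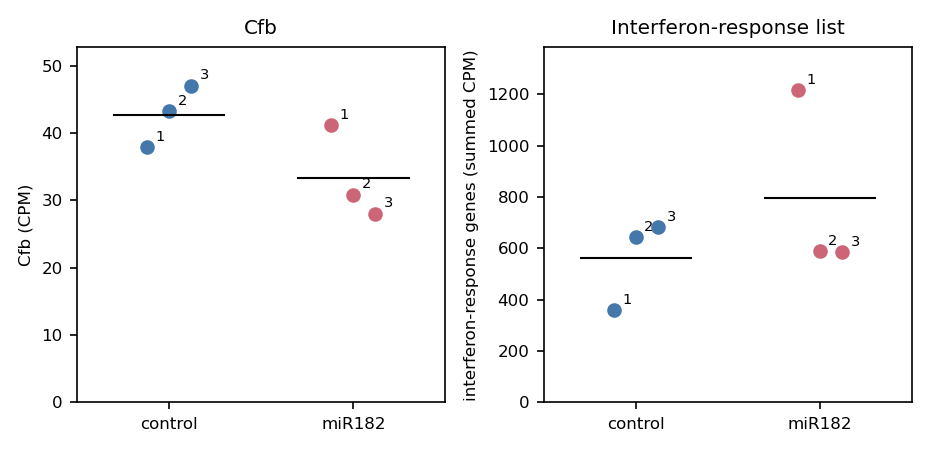
Cfb level (left, CPM) and the summed level of 17 interferon-response genes (right, CPM) in each sample, with replicate numbers beside the points and group means as lines. Replicate 1 is the lowest control sample and the highest miR182 sample on both sides.

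The gene counts of this region need a caution of their own. C4b, C2 and Cfb are close neighbours on the minus strand of chromosome 17 (GRCm38; C4b at chr17:34728380-34743882, Cfb at chr17:34856374-34862518 and C2 at chr17:34862604-34898265). In GENCODE M21 a further gene, Gm20547, shares 57.99% of the 50-base stretches of C2 and 81.38% of those of Cfb, and C4b shares 35.18% with C4a. C4a itself had 27 to 38 reads per sample and did not pass (adjusted p = 0.597). Likewise 24.27% of C1s was shared with C1s2, and 13.33% of Cd55 with Cd55b. Reads that align to more than 1 place were kept apart from genes in these lists, 39.1% to 39.8% of alignments per sample. The levels of C4b, C1s and Cd55 are therefore uncertain in the shared stretches. For C2 and Cfb the case differs, since Gm20547 overlaps their exons on the same strand, by 1656 and 2246 bases, at the same place in the genome. Whether the annotation used for counting held Gm20547 was not examined.

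Of the complement inhibitors 3 of 4 fell with the components. Serping1 encodes the C1 inhibitor, a serpin that blocks C1s and the contact system, and was at 266, 273 and 264 CPM in the control samples and at 215, 212 and 210.0 CPM in the miR182 samples. The miR182 samples lay close together and far below the controls (log2 fold change -0.33, SE 0.027, adjusted p = 2.87e-07). Cd55, which takes the convertases apart, had only 35 to 77 reads per sample, with 2.40, 2.72 and 2.95 CPM against 1.88, 1.33 and 2.27 CPM. Its log2 fold change of -0.55 (SE 0.19, adjusted p = 0.0261) depended on single samples, passing in neither fit without control replicate 2 or 3 and ranging from -0.37 without miR182 replicate 2 (adjusted p = 0.114) to -0.73 without miR182 replicate 3. Cd59a, which blocks the membrane attack complex, fell by 0.21 on the log2 scale, from 14.7 ± 0.599 CPM (SD, n = 3) to 12.7 ± 0.962 (SD, n = 3), with an adjusted p of 0.028. Cd59a no longer passed without control replicate 1 or 3 or miR182 replicate 1 or 2, and in DESeq2 neither Cd55 nor Cd59a passed (adjusted p = 0.053 and 0.0757). Clu, which encodes clusterin, was at 3.26 to 3.56 CPM in the control samples and 3.38 to 3.68 CPM in the miR182 samples, and these ranges overlapped (log2 fold change 0.08, adjusted p = 0.637).

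The receptors for the small fragments C3a and C5a were barely expressed. C3ar1 had 3, 11 and 7 reads in the control samples and 17, 11 and 2 reads in the miR182 samples, and its log2 fold change of 0.40 (SE 0.58, adjusted p = 0.604) turned to -0.18 without miR182 replicate 1. C5ar1 had 1 to 8 reads and was not tested.

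Among the 5 serpins that are not complement inhibitors, 3 fell and the 2 most abundant did not pass. Serpina3n, an inhibitor of leukocyte proteases, was at 262, 252 and 257 CPM in the control samples and at 212, 217 and 214 CPM in the miR182 samples. The change was a decrease of 16.6% with a small spread in both groups (log2 fold change -0.26, SE 0.028, adjusted p = 3.42e-06). Serpine2, which encodes the thrombin and plasminogen activator inhibitor nexin-1, fell by 0.32 on the log2 scale (SE 0.040, adjusted p = 1.44e-05), from 105 ± 2.90 CPM (SD, n = 3) to 83.6 ± 4.50 (SD, n = 3). Serpinb6a, an intracellular serpin, fell by 0.15 (SE 0.034, adjusted p = 0.00279), and its exons share 1587 bases with genes on the opposite strand, among them Nqo2 and Ripk1.

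Serpinh1 and Serpinf1 were the most abundant of all 33 genes per length. Serpinh1 encodes HSP47, a collagen chaperone with no inhibitory activity, and was at 2910.1, 2857 and 2862 CPM in the control samples and at 2977, 2827 and 2819.8 CPM in the miR182 samples. The means, 2876 ± 29.2 and 2874 ± 88.6 CPM (SD, n = 3 each), differed by far less than the spread (adjusted p = 0.984). Serpinf1 encodes PEDF, a secreted factor abundant in fat, and was at 1708, 1681 and 1679 CPM against 1639, 1601 and 1615 CPM. Each miR182 sample of Serpinf1 lay below each control sample, by 4.18% on average, yet the gene did not pass (log2 fold change -0.06, SE 0.029, adjusted p = 0.0944). It passed only when miR182 replicate 1 was left out (adjusted p = 0.0332).

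**Figure D4:**
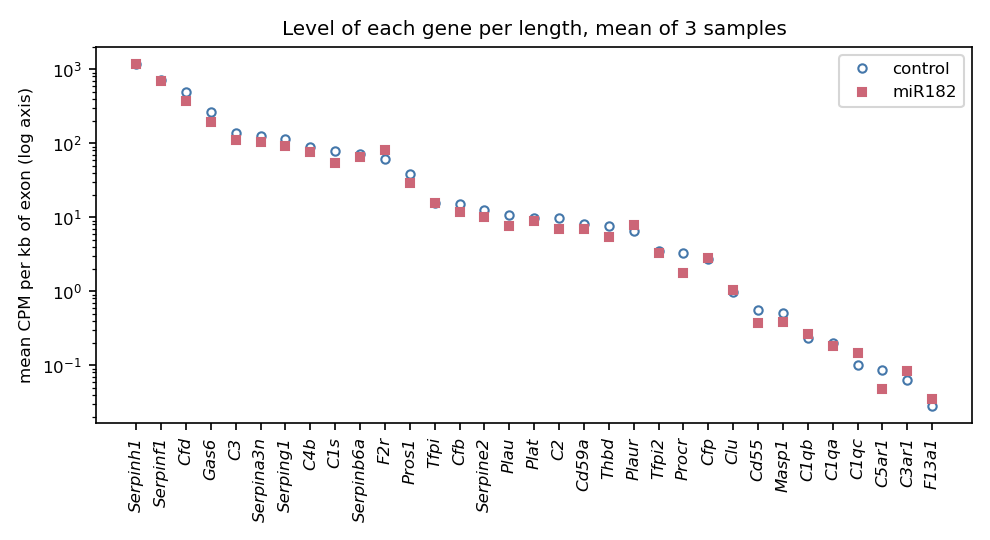
Mean level of each of the 33 genes per length (CPM per kb of exon, log axis, mean of 3 samples), in order of the control level, with control as open circles and miR182 as filled squares. Serpinh1 and Serpinf1 lead, Cfd follows, and the C1q chains, C5ar1, C3ar1 and F13a1 sit at the low end.

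Per kb of exon, counted over all annotated exons of a gene, the control levels of Serpinh1, Serpinf1, Cfd and Gas6 were 1177, 716, 497 and 261 CPM. On this scale C3 at 138 and Serpina3n at 124 followed. The miR182 levels kept this order for the leading 5 genes, at 1177, 686, 371, 195 and 112 CPM per kb. F2r moved past C4b, C1s and Serpinb6a, from 61.8 to 82.3 CPM per kb, where C4b went from 89.9 to 77.4, C1s from 78.0 to 54.8 and Serpinb6a from 72.6 to 65.6. All exons together can be far longer than a transcript. They came to 5409 bases for Serpinb6a and 8287 for Serpine2, whose longest coding transcripts have 1654 and 2210. The places of such genes in this order therefore depend on the length chosen. At the low end stood F13a1, a clot-crosslinking enzyme made by macrophages and megakaryocytes, at 0.0286 and 0.0355 CPM per kb with 3 to 7 reads per sample.

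The genes of urokinase and its receptor moved in opposite directions. Plau encodes urokinase and was at 25.8, 25.2 and 25.2 CPM in the control samples and at 19.6, 18.7 and 16.2 CPM in the miR182 samples. Control samples were almost equal, and all miR182 samples lay below them (log2 fold change -0.48, SE 0.068, adjusted p = 5.01e-05). Plaur, the receptor that holds urokinase at the cell surface, was at 18.1, 16.1 and 17.2 CPM against 22.7, 21.2 and 18.9 CPM. It rose by 22.3%, with all miR182 samples above all controls, although miR182 replicate 3 lay close to control replicate 1 (log2 fold change 0.29, SE 0.074, adjusted p = 0.00509). Plat, the tissue-type activator, fell by 0.14 on the log2 scale (SE 0.043, adjusted p = 0.0175), from 61.4 ± 2.27 to 55.9 ± 1.98 CPM (SD, n = 3 each). Plat no longer passed without control replicate 2 (adjusted p = 0.0851), miR182 replicate 2 (0.0657) or miR182 replicate 3 (0.0808).

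The protein C pathway held the gene that differed most. Procr, the endothelial protein C receptor (chr2:155751117-155755471 of GRCm38, plus strand), was at 6.09, 7.01 and 7.24 CPM in the control samples and at 3.22, 4.10 and 3.61 CPM in the miR182 samples. Its highest miR182 sample was well below its lowest control sample, and the level was 46.4% lower (log2 fold change -0.90, SE 0.12, adjusted p = 2.74e-05). Only 2.24% of all genes tested had a lower log2 fold change. The gene had 94 to 189 reads per sample, and leaving out any 1 sample moved its log2 fold change between -0.98 and -0.82. It is also the only gene among the 19 that fell with a seed match in its 3′-UTR, the TGCCAAA site shown with the sequences, which starts at base 81 of a 3′-UTR of 587 bases. TGCCAAA was held by 14.3% of all tested genes with a 3′-UTR, and whether the site acts on Procr was not tested.

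Thbd encodes thrombomodulin, the receptor that turns thrombin into an activator of protein C. It was at 29.3, 28.3 and 28.3 CPM in the control samples and at 23.3, 17.2 and 19.3 CPM in the miR182 samples. The controls were close together and the miR182 samples more spread, all of them lower (log2 fold change -0.52, SE 0.084, adjusted p = 0.000158). Pros1 encodes protein S, the cofactor of activated protein C, and was at 153, 163 and 157 CPM against 124, 114 and 117 CPM. Pros1 fell by 0.41 on the log2 scale without overlap (SE 0.036, adjusted p = 5.37e-07). Thus Procr, Thbd and Pros1 all passed, with decreases of 46.4%, 30.3% and 24.8%. Proc, which encodes protein C itself, had 0 to 2 reads per sample and was not tested.

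Thrombomodulin and the protein C receptor are best known from endothelium. The endothelial markers were low, with 7 of 11 under 1 CPM in every sample, Cldn5 at 0 reads and Pecam1 at most 0.390 CPM. Their summed level was 23.9 to 25.0 CPM in the control samples and 21.5 to 21.9 CPM in the miR182 samples. Tek was called lower (log2 fold change -1.31, adjusted p = 1.49e-06), Egfl7 was lower at -0.46, and Flt1, the endothelial marker with the highest CPM (not corrected for length), was higher at 0.36 (adjusted p = 0.00189). The part of these markers in the values of Thbd and Procr was not tested.

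Unlike the protein C arm, the tissue factor pathway inhibitors did not pass. Tfpi was at 84.8, 86.7 and 87.1 CPM in the control samples and at 88.0, 87.0 and 82.8 CPM in the miR182 samples. These values overlapped fully, with a ratio of 0.997 (SE 0.034 on the log2 scale, adjusted p = 0.932), although Tfpi is the gene that carries the longest match, TTGCCAAA. Tfpi2 was at 6.09, 6.05 and 6.28 CPM against 6.65, 5.12 and 5.31 CPM, and miR182 replicate 1 lay above all controls while the other two lay below (log2 fold change -0.11, adjusted p = 0.467).

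F2r encodes PAR1, the main thrombin receptor (chr13:95601803-95618487, minus strand), and it rose. It was at 211, 200.1 and 207 CPM in the control samples and at 277, 271 and 277 CPM in the miR182 samples. The lowest miR182 sample lay well above the highest control sample (log2 fold change 0.41, SE 0.029, adjusted p = 5.29e-08). The level was 33.2% higher, and 94.6% of all genes tested had a lower log2 fold change. Gas6 moved the other way. It encodes a vitamin K-dependent ligand of the receptors Axl, Tyro3 and Mertk that is related to protein S, and was at 663, 655 and 679 CPM against 481, 508 and 500.0 CPM. Gas6 fell by 0.42 on the log2 scale (SE 0.030, adjusted p = 6e-08). Of its receptors, Axl was higher by 0.13 (adjusted p = 0.0253), whereas Mertk had a log2 fold change of -0.35 (adjusted p = 0.0509) with all miR182 samples below all controls, and Tyro3 one of 0.10 (adjusted p = 0.204), and neither passed.

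**Figure D5:**
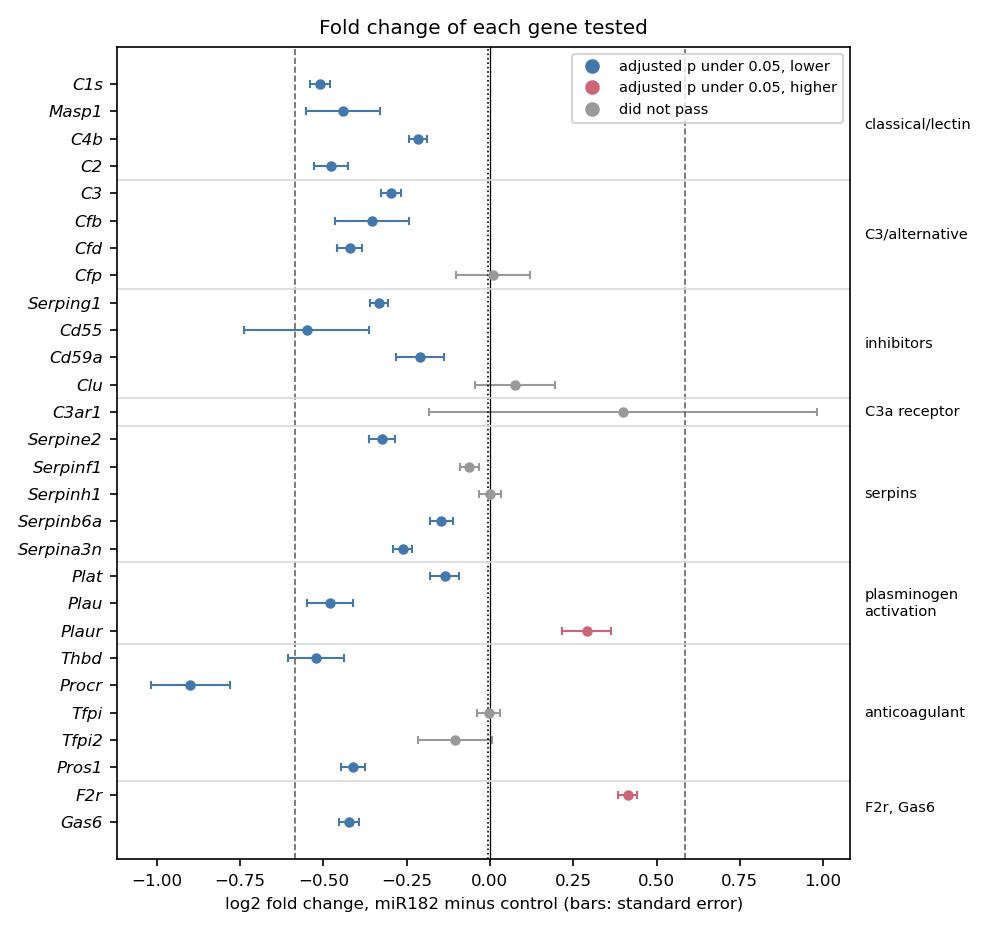
Log2 fold change (miR182 minus control, horizontal axis) of the 28 tested genes by role, with bars of 1 standard error; blue genes passed lower, red passed higher and grey did not pass. Dashed lines mark 1.5-fold and the dotted line the median of all genes tested. Only Procr passes the left dashed line, and the bars of C3ar1 and Cd55 are the widest.

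Seed matches in the 3′-UTR were also counted by direction of change. Of the 19 genes that fell, 18 had none of the 3 matches in the 3′-UTR and 1, Procr, had TGCCAAA. Over all tested genes with a 3′-UTR, 12.5% held TTGCCAA, 14.3% held TGCCAAA and 5.2% held TTGCCAAA. Neither of the 2 genes that rose had a match, and of the 7 that did not pass 4 had one, namely Tfpi, Tfpi2, Serpinf1 and C3ar1. The median 3′-UTR length was 599 bases for the genes that fell, 1213 for those that rose and 744 for those that did not pass.

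The pathway reaches beyond these 33 genes. A further 131 complement, coagulation and serpin genes were listed, of which 53 had enough reads, and 19 of these passed lower and 7 higher, beside 23.5% and 23.2% of all genes tested, with a median log2 fold change of -0.24. The lower share by role was 4 of 6 in the classical and lectin pathway, 1 of 2 in the terminal components, 3 of 9 among regulators and receptors, 5 of 15 among coagulation factors and receptors, 3 of 9 among anticoagulant and fibrinolysis genes, and 3 of 12 among other serpins. The higher counts in the same order were 1, 0, 0, 3, 2 and 1, and most of these lists are short, with lower shares in the last 4 not far from that of all genes. Many proteins of these cascades are made by the liver, and 28 of the 131 genes had no read in any sample, among them Mbl1, Mbl2, C8a, C8b, F9, Fgg and Plg.

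In the complement part of that list, C1ra, the partner protease of C1s, was at 63.4, 66.2 and 61.9 CPM in the control samples and at 47.3, 43.8 and 43.6 CPM in the miR182 samples. Its log2 fold change of -0.51 (SE 0.045, adjusted p = 6.17e-07) was the same as that of C1s to 2 decimals, but 50.82% of its sequence is shared with other genes, mostly C1rb, which had 0 to 11 reads. Hc, which encodes C5, had 35 to 63 reads and a log2 fold change of -0.52 (adjusted p = 0.0411), and it no longer passed when any 1 of 5 samples was left out. Masp2, Itgb2 and Cpn2 were called lower from 4 to 28 reads per sample, with log2 fold changes of -1.39, -0.74 and -0.75, and the calls on Itgb2 and Cpn2 were lost in DESeq2 and in fits without most of the single samples. DESeq2 gave Masp2 no adjusted p and so did not call it, and a filter of at least 10 counts in every sample left Masp2 out. Masp2 shares 1817 exon bases with Tardbp on the opposite strand.

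Of the coagulation genes, the initiators were lower. F3, tissue factor, was at 706, 766 and 744 CPM in the control samples and at 581, 577 and 569 CPM in the miR182 samples, a decrease of 22.1% (log2 fold change -0.36, SE 0.032, adjusted p = 6.41e-07). F7, its partner, had 6 to 19 reads and was called lower at -1.01, a call lost without 4 of the 6 single samples. DESeq2 gave F7 no adjusted p. Vwf had 10 to 23 reads and did not pass (adjusted p = 0.18). Serpina3c, a neighbour of Serpina3n in a cluster of related serpins, was called lower, at 44.2, 44.5 and 43.4 CPM against 26.1, 26.5 and 28.6 CPM (log2 fold change -0.70, adjusted p = 5.69e-08). It carries 2 copies of TTGCCAA in a 3′-UTR of 850 bases. Seed matches were looked up for only some of the other pathway genes. Among those named here, TTGCCAA was also found in Masp2, which was lower, and in Thbs1, which was higher. TGCCAAA was found in Anxa2, which was lower. F2rl1, which encodes the protease receptor PAR2, was called higher at 1.21 from 6 to 25 reads.

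Markers of the cultured cells themselves also differed between the groups. Of 14 adipocyte genes, 10 (71.4%) passed lower and 2, Lep and Plin4, higher, beside 23.5% and 23.2% of all genes tested. The lower share of the tested complement, coagulation and serpin genes was 67.9%. Summed over the adipocyte list, the level was 17849 to 18852 CPM in the control samples and 11901 to 13556 CPM in the miR182 samples. The gene with the highest CPM in the list, not corrected for length, was Lpl, with a log2 fold change of -0.47, and Fabp4 (-0.68), Retn (-0.85), Pnpla2 (-0.69) and Car3 (-1.02) were called lower. Of 9 tested preadipocyte or fibroblast genes, 6 (66.7%) passed lower and Thy1 higher, and the summed level of that list was 41087 to 42914 CPM against 36144 to 37354 CPM. Pdgfra (-0.86), Pi16 (-0.78), Dcn (-0.65) and Lum (-1.01) were called lower in that list, whereas Col1a1, the gene with the highest CPM in that list, did not pass (adjusted p = 0.378). No sample of one group reached the other in either sum, and the part of these cell markers in the values of the complement and coagulation genes was not tested.

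Other cell types contributed little RNA by their markers. Of 5 platelet or megakaryocyte genes, 2 were tested and neither passed, Gp9 had no read and Itga2b had the highest CPM, 3.61 to 5.70 CPM. The 4 neutrophil genes listed were all under 1 CPM and were not tested. Of 5 mesothelial genes 4 were under 1 CPM, and Krt19 was called higher (log2 fold change 0.80, adjusted p = 3.2e-06), from 22.3 to 23.5 CPM in the control samples to 34.5 to 46.0 CPM in the miR182 samples.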

How the data were processed

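RNA from 6 samples was sequenced as poly(A)-selected, strand-marked libraries. The lists that the authors deposited, 1 per sample, hold unnormalized read counts of 22609 gene symbols and 5 tally lines, which were left out of all totals. The submitters' processing notes name bcl2fastq, TopHat2, HTSeq and the mm9 build without versions, and whether counting used the strand is not given in the sources used here, so genes overlapping on opposite strands may share reads. No feature was assigned to 12.7% to 13.0% of uniquely aligned reads.

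Counts were fitted with edgeR 4.0.16 in R 4.3.3 (TMM, filterByExpr at its default minimum of 10 counts, glmQLFit with glmQLFTest, no block). All tests were two-sided, and p-values were adjusted by Benjamini-Hochberg across 13117 genes. The cutoffs of 1.5-fold and an adjusted p of 0.05 are those of the study. DESeq2 1.42.0, other scalings and filters, a replicate block, edgeR's glmTreat and leaving out samples were the alternatives. Replicates were not copies of one library, since a chi-square of the counts of 2 replicates came to 2.12 to 7.18 per degree of freedom.

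Of the listed symbols, 22209 matched GENCODE M21 on GRCm38, which gave positions, exon lengths and 3′-UTRs, and coordinates are of that build. Python 3.11.15 with pandas 2.3.3 and matplotlib 3.10.9 made tables and figures. The genes and lists were chosen with earlier results of these data known. The text names all 33 genes, the other pathway genes that were called with a fixed set of well-known ones, the gene with the highest mean CPM in each marker list and any marker called. Some genes that this rule names are not reported here. A few further genes (Axl, Tyro3, Mertk, Proc, Cd68, Egfl7, Lep, Plin4, Thy1) were named after their values were seen.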

Additional observations from a re-analysis of the deposited data

How the results depend on the processing

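The 2 genes that rose passed, and between 15 and 19 of the group passed lower, in the 13 alternative fits other than glmTreat, and DESeq2 kept 16 of the 19 that fell, losing Cd55, Cd59a and Cfb. The genes called lower numbered 1 to 2 with any 1 sample left out, 4 without replicate 1 of both groups (Cd55, Cfb, Procr and Thbd, chosen after seeing the data) and 0 by glmTreat. Among the other pathway genes, those passing lower numbered 10 by DESeq2 and 12 to 19 with 1 sample left out, and those passing higher 4 to 7 with 1 sample left out and 4 without replicate 1 of both groups. Those called lower numbered 2 by DESeq2, 3 without a filter and 3 with the replicate block. Those called higher numbered 1 to 3 with 1 sample left out, and 1 both with at least 10 counts in every sample and without replicate 1 of both groups. Signs near 0 turned. Serpinh1 was at 0.00147 with DESeq2 size factors, 0.00148 by DESeq2, 0.000324 without a filter and -0.026 to 0.017 with 1 sample left out. Cfp was at -0.00281 with upper-quartile factors, -0.055 to 0.088 with 1 sample left out and -0.02 without replicate 1 of both groups. Tfpi lay between -0.021 and 0.026 (-0.034 without replicate 1 of both groups), and C3ar1 between -0.18 and 0.89, with 1 sample left out, and C3ar1 was at -0.52 without replicate 1 of both groups. The cause was not tested.

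Same-numbered samples did not deviate together (mean correlation -0.102 over 3 pairs, against 0.0508 for other pairs), and with the replicate block 19 genes still passed lower and 2 higher. With 3 samples per group, genes under about 20 reads, such as Masp2, F7 and C3ar1, have wide errors.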

Other observations

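Acute-phase and inflammatory genes, some of which are co-induced with complement in inflammation, did not move one way. Of 9 such genes, 5 (55.6%) passed lower and 2 (22.2%) higher in the miR182 samples, beside 23.5% and 23.2% of all genes tested. The part of inflammation in the values of the complement genes was not tested. Hp, which encodes the haemoglobin-binding protein haptoglobin and had the highest CPM in the list, was at 1929, 1895 and 1871 CPM in control replicates 1 to 3 and at 1324, 1419 and 1510.4 CPM in miR182 replicates 1 to 3 (log2 fold change -0.42, adjusted p = 1.52e-06 in edgeR's quasi-likelihood fit). Saa3 (-0.52), Lcn2 (-0.27), Ccl2 (-0.35) and Icam1 (-0.71, called) were lower as well. Il6 was called higher at 0.59 from 42 to 89 reads per sample, and Socs3, a gene that interleukin signalling switches on, was at 38.9 to 39.0 CPM in the control samples and 47.1 to 50.1 CPM in the miR182 samples (log2 fold change 0.33, adjusted p = 2.47e-05).

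In the fibrinolysis list, Thbs1, which encodes thrombospondin-1, rose by 17.4% (log2 fold change 0.23, adjusted p = 7.55e-05), while Anxa2 and S100a10, which together form a plasminogen receptor, fell by 0.35 and 0.13 on the log2 scale. These 3 genes were named after their values were seen.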
